A study of Mus musculus with 6 samples.

Results

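The 9 genes described here encode plasma membrane carriers of neutral amino acids, of cationic amino acids in exchange for neutral ones, and of cystine. They are Slc7a5, Slc3a2, Slc1a5, Slc38a1, Slc38a2, Slc7a6, Slc7a8, Slc7a11 and Slc43a2. They were taken as the rows whose Entrez ID carries one of these mouse symbols in RefSeq, and all 9 were found among the 27179 gene IDs of the deposited count table. RNA came from mouse group 2 innate lymphoid cells (ILC2s, tissue lymphocytes that release type 2 cytokines without an antigen receptor). A Chat positive and a Chat negative sorting gate gave 3 libraries each, where Chat is the gene of choline acetyltransferase, which forms acetylcholine. The sources used here name no tissue, mouse strain, age, stimulus or way of detecting Chat. Whether each library is a separate animal is not stated, so the p-values below measure only the spread between these libraries, which may be technical.

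Lymphocytes cannot make essential amino acids and take them up through membrane carriers. Slc7a5 (LAT1) and Slc7a8 (LAT2) exchange large neutral amino acids such as leucine, and Slc7a6 exchanges cationic for neutral amino acids. Slc7a11 (xCT) exchanges glutamate for cystine, which feeds glutathione synthesis. Each of these light chains reaches the cell surface bound to the heavy chain Slc3a2 (CD98hc). Slc1a5 (ASCT2), Slc38a1 and Slc38a2 carry glutamine and other small neutral amino acids with sodium, and Slc43a2 (LAT4) lets branched-chain amino acids, phenylalanine and methionine pass down their gradient. Leucine inside the cell is sensed by the kinase complex mTORC1, and amino acid shortage raises the transcription factor ATF4, which acts on several carrier genes.

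Library totals ran from 37154269 to 50361306 counts in the Chat positive gate and from 42503612 to 44061509 in the Chat negative gate. The 50 most abundant genes took 15.6% to 18.0% of counts in the Chat positive libraries and 15.5% to 17.7% in the Chat negative libraries. Genes detected numbered 15335 to 15755 per Chat positive library and 15348 to 16081 per Chat negative library. The exact permutation p was 1 for totals, 0.5 for the top share and 0.4 for genes with a count, two-sided, n = 3 per gate, where the smallest possible p is 0.1. Chat, the gene behind the gate, stood at 187 ± 17.9 CPM in Chat positive and 20.2 ± 5.49 CPM in Chat negative libraries (SD, n = 3 each). Levels below are CPM, edgeR's depth-normalised read counts on library sizes scaled by TMM factors. In such bulk samples, fewer cells with a transcript and less of it per cell cannot be told apart.

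None of the 9 carrier genes differed between the gates at an adjusted p under 0.05 in edgeR's quasi-likelihood test, in which 1 of 12967 tested genes, or 0.00771%, passed. All 9 passed the filter on low counts. Slc43a2 alone had an unadjusted p under 0.05, a mark that 2.43% of all tested genes reached. DESeq2, which called 0.0308% of all genes (0.0231% higher), and limma-voom, which called Chat alone, also called 0 of the 9. The changes lay on both sides of 0, with 5 genes above 0, beside 50.9% of all tested genes, and 4 below, and their median log2 change, Chat positive minus Chat negative, was 0.06 beside 0.0044 over all tested genes. The libraries of the 2 gates overlapped for 8 of the 9 genes, while they did not overlap for 8.14% of all tested genes. Slc43a2 was the exception and lay lower in the Chat positive gate, as did 3.61% of all tested genes, and no carrier lay higher without overlap, as 4.53% did.

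**Figure D1:**
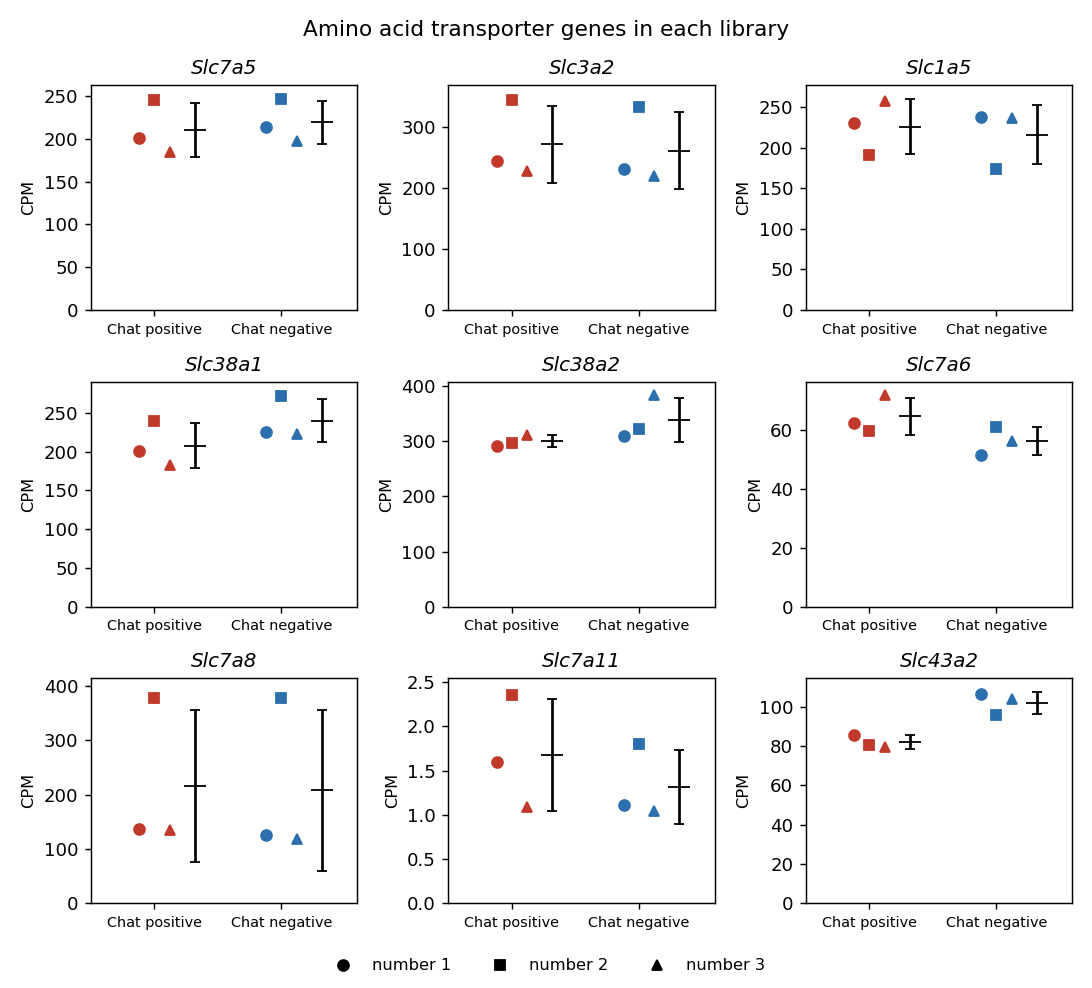
CPM (y axis, from 0, TMM-scaled) of each carrier gene in the Chat positive and Chat negative libraries. Symbols mark the library number and bars the mean and SD of 3 libraries. Slc43a2 is the gene without overlap, and the number 2 libraries of both gates lie apart for Slc7a8, at 377.5 CPM in Chat positive and 378 CPM in Chat negative cells.

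The gates share the library numbers 1 to 3, and libraries of the same number deviated together, most clearly for number 2 (correlation 0.674). No label pairs the libraries, and the pairing is less sure for numbers 1 and 3. Chat negative 1 correlated with Chat positive 3 (0.301) about as much as with Chat positive 1 (0.29). With the number as a block, edgeR called 44 of 12967 genes, or 0.339%, and 0 of the 9 carriers, although 3 carriers, Slc43a2, Slc38a1 and Slc38a2, had an unadjusted p under 0.05, as did 16.5% of all tested genes. Without robust dispersions the blocked fit called 1 gene in all, Chat. The smallest adjusted p among the carriers in the robust blocked edgeR fit was 0.0925, for Slc43a2. DESeq2 with the block called 3.56% of all genes and, of the carriers, Slc43a2 (adjusted p = 0.00392) and Slc38a1 (adjusted p = 0.0258), both lower in Chat positive cells, a direction in which it called 2.12% of all genes, and it called 1.43% higher. Some genes, Slc7a11 among them, got no adjusted p in that fit and could not be called, and the shares count them in. limma-voom with the block called 0 of the 9, and Chat alone of all genes. Within number, 2 carriers were higher in the Chat positive library for 3 of 3 numbers, beside 22.3% of all tested genes, and 4 were lower for 3 of 3, beside 17.3%.

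**Figure D2:**
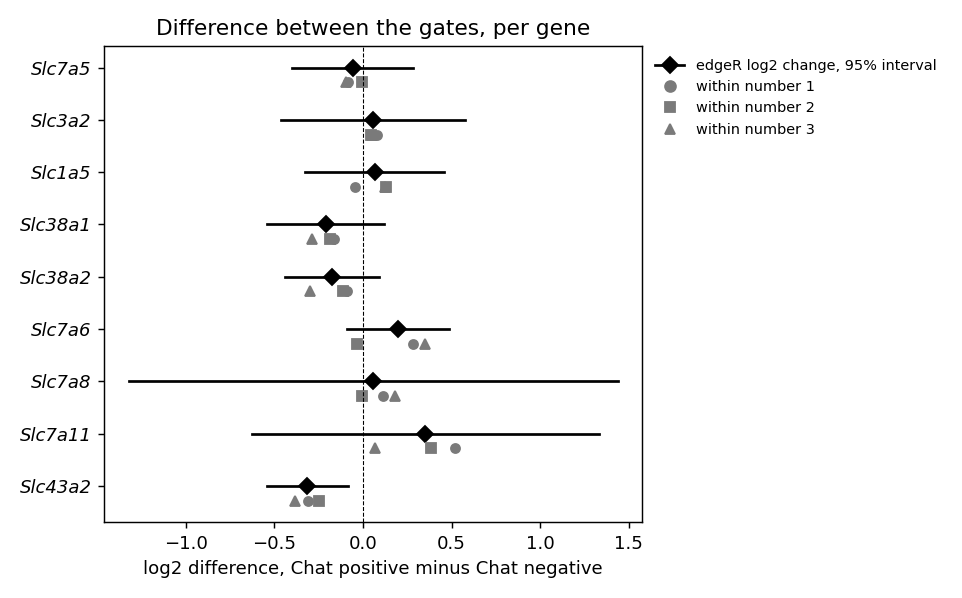
Log2 difference per carrier gene (x axis), Chat positive minus Chat negative. Black diamonds with lines give the edgeR log2 change and its 95% interval, and grey symbols the difference within each library number. The interval of Slc43a2 lies below 0, from -0.54 to -0.09, and that of Slc7a8 is the widest of the 9, from -1.32 to 1.44.

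Among the heavy and light chains, the heavy chain and LAT1 hardly moved with the gate. Slc3a2 (Entrez 17254, mm10 chromosome 19, 8706882 to 8723369) stood at 243, 344 and 227 CPM in Chat positive libraries 1, 2 and 3, against 230.6, 333 and 219 CPM in Chat negative libraries 1, 2 and 3. Number 2 was the high library of both gates, and the gates overlapped. Its log2 change was 0.06 (SE 0.22, 95% interval -0.46 to 0.58, edgeR adjusted p = 1). Slc7a5 (Entrez 20539, chromosome 8, 121881146 to 121907686) stood at 201, 246 and 185 CPM in Chat positive libraries, against 213.5, 247 and 197 CPM in Chat negative libraries, in the order of their numbers. It too was highest in number 2 of each gate. The difference on the log2 scale was -0.06 (SE 0.14, interval -0.40 to 0.28, adjusted p = 1).

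Slc7a8 (Entrez 50934, chromosome 14, 54722215 to 54781886) was spread far more between library numbers than between gates. It stood at 136, 377.5 and 135 CPM in Chat positive libraries 1, 2 and 3, against 126, 378 and 118 CPM in Chat negative libraries 1, 2 and 3. Both number 2 libraries were high, and the other 4 libraries lay close together. The log2 change was 0.06 (SE 0.58, interval -1.32 to 1.44, adjusted p = 1), and the spread between numbers enters that interval. With the block the log2 change was 0.10 (SE 0.06, adjusted p = 0.453), and without both number 2 libraries it was 0.14 (SE 0.09, adjusted p = 0.656).

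Slc7a6 (Entrez 330836, chromosome 8, 106168219 to 106198714) stood at 62.6, 59.7 and 71.9 CPM in Chat positive libraries, against 51.5, 61.2 and 56.4 CPM in Chat negative libraries. Numbers 1 and 3 were higher in the Chat positive gate and number 2 was not. The log2 change was 0.20 (SE 0.12, interval -0.09 to 0.49, adjusted p = 1). Taken per kilobase of the longest GENCODE transcript, Slc7a5 made up 52.1%, 38.6% and 49.2% of the light chain level in Chat positive libraries 1, 2 and 3, against 56.7%, 38.8% and 55.4% in Chat negative libraries. Slc7a8 made up 30.3%, 51.1% and 30.9% in Chat positive libraries, against 28.8%, 51.1% and 28.7% in Chat negative libraries. So Slc7a5 led in numbers 1 and 3 of both gates, and Slc7a8 led in number 2 of both on this length. With the mean transcript length Slc7a5 led in number 2 as well, at 171 and 172 CPM per kilobase in Chat positive and Chat negative cells, against 121.0 and 121 for Slc7a8. Slc7a6 took 14.0% ± 4.70 in Chat positive and 12.2% ± 2.98 in Chat negative libraries (SD, n = 3 each). The summed light chains, with Slc7a7 and Slc7a10 counted in, stood at 1.36 ± 0.111 times the level of Slc3a2 in Chat positive and 1.38 ± 0.132 times in Chat negative libraries. That ratio is for the longest transcript and depends on the length used. With the mean transcript length, Slc3a2 averaged 267.0 CPM per kilobase in Chat positive and 256.7 in Chat negative libraries. Slc7a5 then averaged 146.7 and 152.7, Slc7a8 69.26 and 66.55, and Slc7a6 38.49 and 33.53, in the same order of gates.

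**Figure D3:**
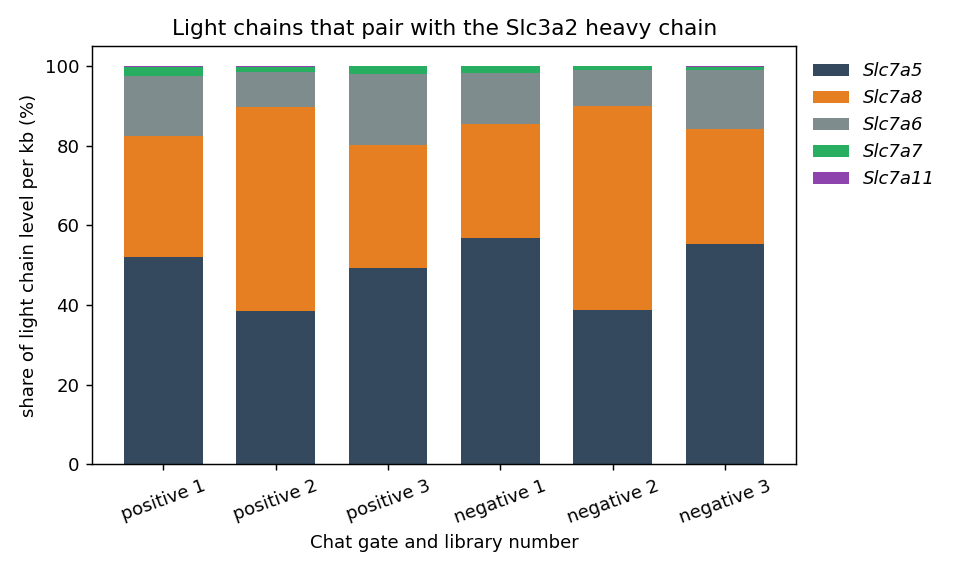
Share of each light chain (y axis, percent of the summed CPM per kilobase of transcript) in each library, with the Chat positive libraries on the left. Slc7a10 was summed in but at most 0.00549% and is not drawn. Slc7a8 takes 51.1% in number 2 of both gates and at most 30.9% in the other libraries.

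Slc7a11 (Entrez 26570, chromosome 3, 50364936 to 50499087), the cystine carrier, was close to silent beside the other 8, with 44 to 121 counts in a library. It stood at 1.595, 2.35 and 1.09 CPM in Chat positive libraries 1, 2 and 3, against 1.11, 1.799 and 1.04 CPM in Chat negative libraries. Number 2 was again the high library in each gate. Its log2 change was 0.35 (SE 0.41, interval -0.62 to 1.33, adjusted p = 1), and it was 0.026 without Chat positive 2 and 0.64 without Chat negative 2. As a light chain it made up 0.136% ± 0.0235 of the per-kilobase sum in Chat positive and 0.111% ± 0.00261 in Chat negative libraries.

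Promoters bear on these genes through ATF4, which binds a composite site with the letters TGATGNAA. Of the 9 carriers, 6 had entries in the RefSeq promoter table (GRCm38.p6, 250 bases before to 50 after a start), 8 entries in all, while Slc7a5, Slc1a5 and Slc38a1 had none. TGATGNAA, searched on both strands, was found in the Slc7a11 entry alone, beside 3.97% of 32851 promoter entries of all genes. It occurred there once on each strand, beginning 66 and 47 bases before the start, without overlap. 2 or more matches were held by 0.07% of all entries. The last 100 bases before the annotated start of the entry are shown for Slc7a11, the one entry with the site, for its heavy chain Slc3a2 and for Slc7a8, the light chain most spread between libraries, 5′ to 3′ on the gene's strand (minus for all 3), with TGATGNAA matches in capitals. They lie at chr3:50443614-50443713, chr19:8713898-8713997 and chr14:54781887-54781986. The bases just after the Slc3a2 start were found in no GENCODE transcript of that gene, while those of Slc7a11 and Slc7a8 were.
Slc7a11: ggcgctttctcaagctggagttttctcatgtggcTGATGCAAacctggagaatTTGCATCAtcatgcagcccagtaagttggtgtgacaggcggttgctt
Slc3a2: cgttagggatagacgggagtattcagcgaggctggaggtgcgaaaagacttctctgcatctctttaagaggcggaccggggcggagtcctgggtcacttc
Slc7a8: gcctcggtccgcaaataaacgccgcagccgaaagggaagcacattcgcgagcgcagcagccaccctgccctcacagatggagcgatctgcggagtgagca
The antioxidant response core TGACNNNGC was found in entries of Slc38a2 and Slc7a6, beside 12.4% of all entries, and the E-box CACGTG in none of the 8, beside 7.15%. The GC box GGGCGG was found in 7 of the 8, those of Slc38a2, Slc3a2, Slc43a2, Slc7a6 and Slc7a8, beside 35.7%. The entries of Slc7a6 overlap, and their GC box and TGACNNNGC matches are the same bases counted in each. A match is a run of letters and not a measured site.

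The sodium-coupled glutamine carriers did not pass either. Slc1a5 (Entrez 20514, chromosome 7, 16781334 to 16798274) stood at 229.8, 191 and 258 CPM in Chat positive libraries 1, 2 and 3, against 237, 174 and 236 CPM in Chat negative libraries. Here number 2 was the low library of each gate, opposite to Slc3a2 and Slc7a8. The log2 change was 0.07 (SE 0.17, interval -0.33 to 0.46, adjusted p = 1). Slc38a1 (Entrez 105727, chromosome 15, 96571418 to 96643438) stood at 200.4, 239 and 182 CPM in Chat positive libraries, against 225, 272 and 223 CPM in Chat negative libraries. It was lower in the Chat positive library of each number while the gates overlapped. Its log2 change was -0.21 (SE 0.14, interval -0.54 to 0.12, adjusted p = 1), and -0.21 (SE 0.05, adjusted p = 0.124) in edgeR with the block. The lncRNA gene Gm32457 lies within the Slc38a1 locus, and the counting strand is not known, so their reads cannot be told apart where they overlap. Slc38a2 (Entrez 67760, chromosome 15, 96687392 to 96699728) is a neighbour of Slc38a1 and is induced by amino acid shortage. It stood at 292, 297 and 312 CPM in Chat positive libraries, against 310.0, 322 and 384 CPM in Chat negative libraries. Number 3 was the high library in each gate, and the gates overlapped at 310.0 to 312 CPM. Its log2 change was -0.17 (SE 0.11, interval -0.44 to 0.09, adjusted p = 1).

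Slc43a2 (Entrez 215113, chromosome 11, 75529915 to 75577575) stood at 85.9, 80.6 and 79.5 CPM in Chat positive libraries 1, 2 and 3, against 106.5, 95.7 and 103.8 CPM in Chat negative libraries. Every Chat positive library lay below every Chat negative one. Means were 82.0 ± 3.39 CPM in Chat positive and 102 ± 5.62 CPM in Chat negative libraries (SD, n = 3 each), a 0.804-fold level with a 95% interval of 0.686 to 0.943. The log2 change was -0.31 (SE 0.10), with an unadjusted p of 0.0141 and an adjusted p of 1 in edgeR over 12967 genes. The within-number log2 differences were -0.31, -0.25 and -0.38. The 10 ILC2 markers summed to 13420 to 21750 CPM in Chat positive and 11790 to 16590 CPM in Chat negative libraries, with 6 above 0 and 4 below in log2 change and none called in the unblocked edgeR fit. edgeR with the block called 2 of them higher (Il1rl1 and Il5), beside 0.216% of all tested genes, but none in that fit without robust dispersions. DESeq2 with the block called 4 of these markers higher, beside 1.43% of all tested genes, and 1 lower, beside 2.12%. Their part in the Slc43a2 difference was not tested. Over all alternatives the adjusted p of Slc43a2 ran from 0.00392 to 1, with DESeq2 plus the block the one that called it. The microRNA gene Mir3971 lies within the locus.

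Ordered by CPM per kilobase of the longest transcript, Slc3a2 stood first with 96.5 ± 22.4 in Chat positive and 92.8 ± 22.3 in Chat negative libraries, followed by Slc1a5 with 80.5 ± 12.02 and 76.95 ± 12.9 in the same order of gates. Slc7a5 had 59.9 ± 9.03 CPM per kilobase in Chat positive and 62.3 ± 7.27 in Chat negative libraries. Slc7a8 had 52.9 ± 34.2 and 50.8 ± 36.2, and Slc38a2 49.1 ± 1.69 and 55.3 ± 6.51, in Chat positive and then Chat negative libraries. Neighbours among these 5 did not differ beyond the sum of their SDs in either gate. Slc38a1 followed with 28.5 ± 4.01 CPM per kilobase in Chat positive and 33.0 ± 3.81 in Chat negative libraries, then Slc7a6 with 17.3 ± 1.69 and 15.0 ± 1.29, and Slc43a2 with 11.5 ± 0.475 and 14.3 ± 0.786. Slc7a11 was last with 0.182 ± 0.0686 and 0.143 ± 0.0454. Beyond the sum of SDs were the steps from Slc38a1 to Slc7a6 and from Slc43a2 to Slc7a11 in both gates. The steps from Slc38a2 to Slc38a1 and from Slc7a6 to Slc43a2 were so in the Chat positive gate. In the Chat negative gate the step from Slc7a6 to Slc43a2 was not, and Slc7a8 stood between Slc38a2 and Slc38a1. With the longest protein-coding transcript as length, Slc38a2 moved to the third place, at 64.4 CPM per kilobase in Chat positive and 72.6 in Chat negative libraries. With the mean transcript length Slc38a2 (55.7 ± 1.92) and Slc38a1 (49.6 ± 6.96), and Slc7a6 (38.5 ± 3.78) and Slc43a2 (37.3 ± 1.54), no longer lay beyond the sum of their SDs in the Chat positive gate. In the Chat negative gate Slc43a2 (46.3 ± 2.55) then stood above Slc7a6 (33.5 ± 2.88).

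Ratios of 2 counts within a library do not depend on library size, and 6 such ratios were compared. Slc7a5 to Slc3a2 was 0.827, 0.716 and 0.813 in Chat positive libraries 1, 2 and 3, against 0.926, 0.742 and 0.899 in Chat negative libraries. Overlap between the gates was found for all 6 ratios. Within number, Slc7a5 to Slc3a2 and Slc43a2 to Slc7a5 were lower in Chat positive for 3 of 3 numbers. Slc7a11 to Slc3a2 and Slc7a8 to Slc7a5 were higher for 3 of 3, the latter hardly so in number 2 (1.534 against 1.53). These ratios share Slc7a5 or Slc3a2 and are not independent. For Slc7a5 to Slc3a2 the unpaired comparison gave no call (log2 difference -0.12, exact permutation p = 0.4, adjusted 0.6). Slc43a2 to Slc7a5 averaged 0.395 ± 0.0583 in Chat positive and 0.471 ± 0.0738 in Chat negative libraries (exact permutation p = 0.3, n = 3 each). Slc7a6 to Slc7a5 averaged 0.314 ± 0.0732 and 0.258 ± 0.0243 (exact permutation p = 0.3), and Slc7a11 to Slc3a2 0.00607 ± 0.00110 and 0.00499 ± 0.000355 (p = 0.3), Chat positive values first in each case. Slc7a8 to Slc7a5 was 0.676, 1.53 and 0.728 in Chat positive libraries 1, 2 and 3, against 0.590, 1.53 and 0.601 in Chat negative libraries (exact permutation p = 0.5). Slc38a1 to Slc38a2 averaged 0.693 ± 0.111 in Chat positive and 0.717 ± 0.132 in Chat negative libraries (exact permutation p = 0.8). The adjusted p was 0.6 for the first 5 ratios and 0.8 for the last, two-sided over 6 ratios, and 3 libraries a gate cannot give a p below 0.1.

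Several carriers were spread more between library numbers than between gates. This was seen in the values and is given as a description without a test. Within the Chat positive gate, number 2 stood at 2.79 times the mean of numbers 1 and 3 for Slc7a8, 1.75 times for Slc7a11, 1.46 times for Slc3a2, 1.27 times for Slc7a5 and 1.25 times for Slc38a1. Within the Chat negative gate the same 5 genes stood at 3.09, 1.67, 1.48, 1.204 and 1.21 times. Slc1a5 stood at 0.782 times in the Chat positive and 0.736 times in the Chat negative gate. So number 2 lay above both other numbers in both gates for 5 of 9 carriers and below them for 1. Over all 12967 tested genes the same held for 31.2% above and 29.6% below, and number 2 was the number most often apart. The same 5 carriers were lowest in number 3 of both gates, as were 18.5% of all tested genes. For Slc7a8, number 2 exceeded the higher of the other libraries at least 2.77-fold in each gate, and 35 tested genes, or 0.27%, had a larger such fold.

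**Figure D4:**
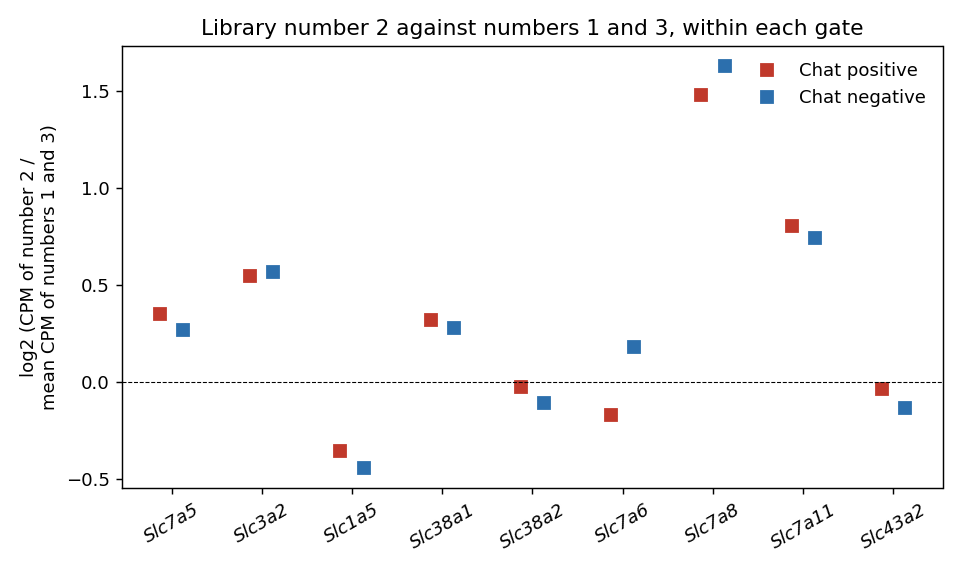
Log2 of the CPM of library number 2 over the mean of numbers 1 and 3 (y axis) for each carrier gene, with Chat positive in red and Chat negative in blue. Slc7a8 is far above 0 in both gates (2.79 and 3.09 times on the linear scale), and Slc1a5 is below 0 in both.

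Cell type and state markers moved with number 2 too, and their part in the carrier differences between numbers was not tested. The 10 ILC2 markers, among them Il5 and Id2, were all detected, and their summed level was 13420 and 11790 CPM in the number 2 libraries (Chat positive and Chat negative), against 14270 to 21750 CPM in the other libraries, with 7 of the 10 below the other numbers in both gates. Il5 averaged 11190 ± 3208 CPM in Chat positive and 7012 ± 1379 CPM in Chat negative libraries, and Id2 2535 ± 381 and 2438 ± 281. Of 7 mast cell and basophil markers, 2 were tested, Kit and Mcpt8, and they went opposite ways in number 2. Kit stood at 194, 276 and 157 CPM in Chat positive libraries 1, 2 and 3, against 169, 247 and 153 CPM in Chat negative libraries. Mcpt8 stood at 124, 24.9 and 147 CPM in Chat positive libraries 1, 2 and 3, against 134, 30.8 and 203 CPM in Chat negative libraries, while Mcpt4, Cpa3 and Tpsb2 had 0 counts in all 6 libraries. The summed mast cell and basophil level was 301.1 and 278 CPM in the number 2 libraries and 303 to 357 CPM in the others.

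Several other marker lists were also apart in number 2, and their part was likewise not tested. T cell markers, led by Cd3g and Cd3e, summed to 19.5 to 44.3 CPM in Chat positive and 23.7 to 44.5 CPM in Chat negative libraries, with the low end in number 2 of each gate and Cd8b1 at 0, while Trac, the third marker tested, was highest in number 2 of both gates. Macrophage and dendritic cell markers, led by Cd68 and Adgre1, summed to 8.49 and 8.19 CPM in the number 2 libraries of the Chat positive and Chat negative gates, and to 20.2 to 24.0 CPM in the others. Epithelial, stromal and endothelial markers, led by Pecam1 and Epcam, summed to 92.3 and 84.8 CPM in the number 2 libraries and to 123 to 166 CPM in the others, with Cdh5 at 0. The B cell sum was 361 and 427 CPM in number 2 and 288 to 346 CPM in the other libraries, but its leading genes went opposite ways: Ighm was highest and Cd79b lowest in number 2 of both gates. ILC3 markers, led by Il22, summed to at most 5.998 CPM. ILC1 and NK cell markers, led by Prf1 and Nkg7, summed to 76.7 to 102 CPM in Chat positive and 92.8 to 124 CPM in Chat negative libraries. Between the gates, DESeq2 with the block called Ighm, Nkg7, Epcam and the mast cell and basophil marker Mcpt8 lower in Chat positive cells. Their lists held 2, 3, 5 and 2 tested genes, and 2.12% of all genes were called lower. That fit called no marker outside the ILC2 list higher, and edgeR with the block called none outside it. Whether these markers bear on the carrier differences between the gates was not tested.

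The genes closest to 3 of the carriers in pattern were found by the root mean square difference of centred log2 CPM over the 6 libraries, among 8230 genes with a mean of at least 10 CPM. For Slc7a5 they included Stag1 (0.0201) and Cep250 (0.0223). For Slc3a2 they were Snrnp40 (0.0196), Itpa (0.0263) and Lbr (0.0287), and for Slc1a5 Hps5 (0.0225), Tsr3 (0.0269) and Smc5 (0.0302). Among the carriers themselves Slc7a5 was nearest to Slc38a1 (0.0818), and Slc3a2 was nearer to Slc7a5 (0.134) than to Slc7a8 (0.472). Slc1a5 and Slc7a8 were the pair farthest apart (0.924).

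Other amino acid carriers of the plasma membrane were mostly absent. Of 28 listed, 11 passed the low-count filter, none passed the edgeR test, and their median log2 change was -0.13. The gates did not overlap for 3 of the 11, beside 8.14% of all tested genes. Slc6a6, the taurine carrier, stood at 109, 120.3 and 125 CPM in Chat positive libraries 1, 2 and 3, against 144, 139 and 152 CPM in Chat negative libraries. Every Chat positive library lay below every Chat negative one, with a log2 change of -0.29 (SE 0.10, edgeR adjusted p = 1). DESeq2 with the block called Slc6a6 lower (adjusted p = 0.00508). Slc7a7, a further light chain of Slc3a2, averaged 5.19 ± 0.684 CPM in Chat positive and 3.29 ± 1.17 CPM in Chat negative libraries, and the glycine carrier Slc6a9 17.3 ± 1.41 and 19.6 ± 0.929. The cationic carrier Slc7a1 stood at 29.1, 49.4 and 24.1 CPM in Chat positive libraries, against 30.6, 59.1 and 27.8 CPM in Chat negative libraries, high in number 2 of both. Slc1a3, Slc7a9, Slc7a12 and Slc7a13 had 0 counts in all 6 libraries, where counting error would permit at most 3 reads, equal to 0.0811 CPM in the library with the fewest counts.

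Of 12 lysosomal carriers listed, 11 were tested and none passed, with 7 above 0, 4 below and a median log2 change of 0.09. The list was drawn up for amino acid carriers but also holds Slc17a9, a nucleotide carrier, and Slc29a3, a nucleoside carrier. Slc17a9 and Slc15a4 were the most abundant, at 36.3 ± 3.02 and 33.6 ± 3.19 CPM in Chat positive libraries, against 35.3 ± 4.89 and 34.5 ± 2.41 CPM in Chat negative libraries. The smallest p-values belonged to Slc29a3 (log2 change -0.39, SE 0.19, edgeR adjusted p = 1), whose libraries did not overlap, and Slc36a1, which passes amino acids out of the lysosome (0.25, SE 0.23).

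The genes of mTORC1 and its amino acid sensors had 42 of 42 members tested and none called in edgeR, with 26 above 0 and a median log2 change of 0.03. Castor1, an arginine sensor, averaged 345 ± 66.4 CPM in Chat positive and 339 ± 61.7 CPM in Chat negative libraries, and the Rag GTPase Rragc 227 ± 14.1 and 237 ± 28.3. Sec13, of a complex upstream of the Rag GTPases, stood at 150.4, 159.7 and 168 CPM in Chat positive libraries, against 119.7, 140.1 and 124 CPM in Chat negative libraries, without overlap (log2 change 0.32, SE 0.11, edgeR adjusted p = 1, and 0.00616 in DESeq2 with the block). The translation repressor Eif4ebp2 averaged 12.4 ± 0.651 CPM in Chat positive and 16.2 ± 1.72 CPM in Chat negative libraries (log2 change -0.39, SE 0.15).

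The ATF4 amino acid response had 25 of 25 members tested and none called in edgeR without the block, with 15 above 0 and a median log2 change of 0.06. Nupr1, a stress-induced chromatin protein, stood at 65.2, 61.3 and 63.3 CPM in Chat positive libraries, against 32.6, 44.6 and 37.4 CPM in Chat negative libraries, without overlap. The log2 change of Nupr1 was 0.73 (SE 0.14, edgeR adjusted p = 1). Its adjusted p was 0.0419 in edgeR with the block and 0.104 in that fit without robust dispersions, and ran from 1.65e-06 to 1 over all alternatives. It was also called by DESeq2 (adjusted p = 0.0221), and DESeq2 with the block called Stc2 lower as well. Cth, which makes cysteine from cystathionine, stood at 3.24, 2.66 and 2.63 CPM in Chat positive libraries, against 2.01, 1.61 and 1.09 CPM in Chat negative libraries, also without overlap (log2 change 0.86, SE 0.32, adjusted p = 1). The serine enzyme Psat1 averaged 271 ± 66.5 CPM in Chat positive and 247 ± 74.0 CPM in Chat negative libraries, and the translation initiation factor Eif2s1 233 ± 29.0 and 202 ± 41.9.

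The cytosolic aminoacyl-tRNA synthetases, which load amino acids onto tRNAs, had 20 of 20 tested and none called between the gates, with a median log2 change of 0.0071. Vars averaged 394 ± 39.2 CPM in Chat positive and 432 ± 18.9 CPM in Chat negative libraries, Nars 384.5 ± 47.5 and 359 ± 71.4, and Cars, without overlap, 88.5 ± 1.32 and 81.7 ± 3.98. By library number they stood together: 18 of the 20 were above both other numbers in number 2 of both gates, and Sars was below. Their median level in number 2 was 1.28 times the mean of numbers 1 and 3 in the Chat positive gate and 1.35 times in the Chat negative gate, beside 0.997 and 0.995 times for all tested genes. For the 9 carriers that median was 1.25 and 1.2 times.

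Enzymes of glutamine, glutamate and branched-chain amino acids had 18 of 18 tested and none called, with a median log2 change of -0.01. Glud1, which turns glutamate into 2-oxoglutarate, averaged 513 ± 30.8 CPM in Chat positive and 524 ± 52.8 CPM in Chat negative libraries, and Cad, of pyrimidine synthesis, 225 ± 101.5 and 262 ± 111. Glul, which makes glutamine, averaged 27.1 ± 2.29 CPM in Chat positive and 30.6 ± 0.734 CPM in Chat negative libraries without overlap (log2 change -0.17, SE 0.12). In number 2 of both gates 10 of the 18 were above the other numbers and 1 below.

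Of 19 genes of cystine use and glutathione, 18 were tested and none called in edgeR, while DESeq2 with the block called Gpx4 and Nqo1 higher, with a median log2 change of 0.02. The selenoenzyme Txnrd1 averaged 458 ± 97.2 CPM in Chat positive and 479.7 ± 67.6 CPM in Chat negative libraries, and the peroxidase Gpx1 379 ± 8.83 and 362 ± 16.8, without overlap. The glutathione-degrading Chac2 averaged 11.7 ± 1.71 and 9.77 ± 0.952. The 10 transcription factors tied to carrier genes had 10 tested, none called and 9 below 0, with a median log2 change of -0.11. Hif1a averaged 1424 ± 239 CPM in Chat positive and 1534 ± 392.5 CPM in Chat negative libraries, Myc 233 ± 32.5 and 252 ± 34.1, Tfe3 44.4 ± 4.26 and 52.3 ± 5.22, and Mycn 7.63 ± 1.64 and 10.1 ± 3.57.

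**Figure D5:**
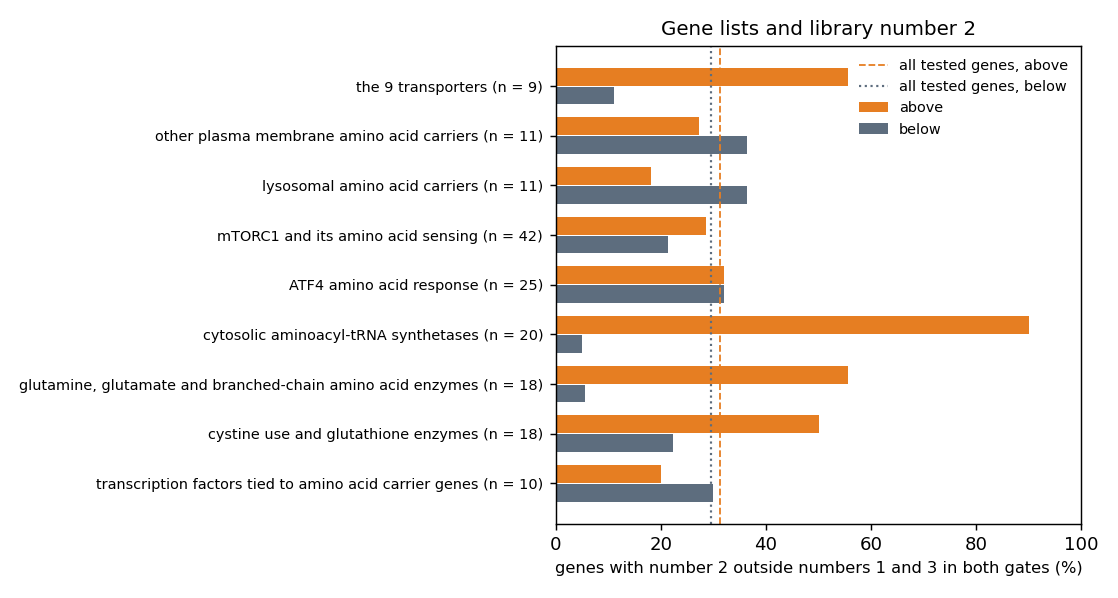
Percent of tested genes per list (x axis) whose number 2 library lay above (orange) or below (grey) both other numbers in both gates, with dashed and dotted lines for all tested genes at 31.2% and 29.6%. The aminoacyl-tRNA synthetases stand apart with 18 of 20 above, and the 9 carriers have 5 above and 1 below.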

How the data were processed

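Sorted ILC2s gave RNA-seq libraries by SMARTer amplification for very small inputs (per the labels' protocols). STAR 2.3.0, CASAVA 1.8.2 and the build mm10 appear in the submitters' processing notes. No source used here names the counting program or its strand setting. The authors deposited raw read counts per Entrez gene ID, all whole, in 1 column per library. Of 27179 IDs, 25275 matched RefSeq genes of GRCm38.p6. Transcript lengths are those of GENCODE.

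Genes were kept by filterByExpr and tested, positive against negative, with edgeR 4.0.16 (TMM, robust quasi-likelihood F-test, two-sided, Benjamini-Hochberg over 12967 genes, threshold 0.05) in R 4.3.3. SEs are those the F statistic implies. limma 3.58.1 and DESeq2 1.42.0 gave alternatives, and the code was tested on simulated data. Same-numbered libraries deviated together from their gate means (correlation 0.29 for number 1, 0.674 for number 2, 0.43 for number 3, over genes), so they were treated as pairs in the blocked fits. This pairing comes from the data and not from a label. Positive 3 also correlated with negative 1 (0.301) and positive 1 with negative 3 (0.197). Deviations from a gate mean sum to 0, so number 2 also shapes the values of numbers 1 and 3. The pairing of numbers 1 and 3 is therefore less sure than that of number 2. Every pair of libraries within a gate differed by more than sampling noise (smallest ratio of chi-square to its degrees of freedom, 31.5). The limit given for 0 counts covers counting error only.

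The carriers and lists were chosen with earlier results of these data known. Named are Chat, the 9 carriers, the 2 smallest p-values and 2 highest means of each list (highest means alone for markers), and the 3 genes nearest to Slc7a5, Slc3a2 and Slc1a5. Slc6a9, genes at 0 counts, Trac, Sars and the genes named only as called by a blocked fit were named after their values were seen. A few genes that the rule names are not reported here. Alternatives were other scalings and filters, the block, other tools, leaving out each library and other transcript lengths. The blocked fit without robust dispersions, leaving out both libraries of a number and the protein-coding length were added after seeing the data.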

Additional observations from a re-analysis of the deposited data

How the results depend on the processing

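The number of genes called was 1 under the main fit, 44 in edgeR with the replicate block (1 in that fit without robust dispersions), 4 in DESeq2, 461 in DESeq2 with the replicate block, and 0 to 1 when any 1 library was left out. It was 0, 2 and 0 without both libraries of number 1, 2 and 3. Carriers called stayed at 0 in every alternative except DESeq2 with the replicate block, which called 2 (Slc43a2 and Slc38a1). The carriers' median log2 change was -0.0025 with the stricter filter, which drops Slc7a11, and -0.17 to 0.053 when libraries were left out. Leaving out libraries turned the sign of Slc7a5 (log2 change -0.19 to 0.038), Slc3a2 (-0.15 to 0.27), Slc1a5 (-0.067 to 0.17) and Slc7a8 (-0.62 to 0.82, the ends without Chat positive 2 and Chat negative 2), and of the log2 ratios of Slc7a8 to Slc7a5 (-0.22 to 0.61) and Slc38a1 to Slc38a2 (-0.19 to 0.082). Slc43a2 kept its sign, at -0.36 to -0.28. So did Slc38a1 (-0.33 to -0.11), Slc38a2 (-0.23 to -0.075), Slc7a6 (0.10 to 0.31) and Slc7a11 (0.026 to 0.64). Chat kept a log2 change of 3.06 to 3.53 when libraries were left out, but its call was lost in edgeR with the replicate block (3.24, adjusted p = 0.0961), without library 1 or 3 of either gate (adjusted p = 0.127 to 0.247) and without both libraries of number 1 or 3. In the blocked edgeR fit without robust dispersions Chat was called (adjusted p = 0.0024). The causes of the other losses were not tested. With the replicate block no edgeR call among the carriers changed. 3 libraries a gate limit precision.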
